A study of Mus musculus with 13 samples.

Results

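The genes described here are 10 regulators and early products of skeletal muscle, followed in mouse embryonic fibroblasts in which the histone methyltransferase gene Setdb1 was depleted and DNA methylation was disturbed with 5-azacytidine (5-aza). They were picked by name from the 25965 gene intervals of the expression table. Myod1, Myf5, Myf6 and Myog encode the muscle bHLH transcription factors, Mef2c encodes their MADS-box partner, and Chrna1, Actc1, Acta1, Des and Myh3 encode proteins that differentiating muscle makes. All 10 were listed in the table, and how much of each could be tested differed widely. Levels are given in RPM, the reads of a gene scaled to 1 M reads of the library. Of the 10 genes, 4 (Mef2c, Actc1, Acta1 and Des) reached 1 RPM in at least 3 of the 12 libraries compared, 3 more (Chrna1, Myod1 and Myh3) reached 0.1 RPM in at least 3, and Myog, Myf5 and Myf6 did not.

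Poly(A) RNA was sequenced from primary female fibroblasts of mid-gestation embryos that carried the XistΔA mutation on one X chromosome and a PGK-strain X chromosome as the other. Short hairpin RNAs were delivered by retrovirus, cells were selected with puromycin, treated groups received 5-aza for 24 h, and RNA was harvested on day 7. Control and Setdb1 hairpins were each studied without and with 5-aza, which gave 4 groups of 3 libraries. Replicates A and B carried a non-silencing hairpin in the control groups and shSetdb1.4 in the Setdb1 groups, and replicate 1 carried a luciferase hairpin or shSetdb1.6. According to the study, cells given Setdb1 hairpins also carried a gene-trap allele of Setdb1 while cells given the non-silencing hairpin were wild type, and the labels give no genotype for any library, so the effects of hairpin and genotype cannot be told apart. Another library, treated with 5-aza and with no named hairpin, entered no comparison. Its library name holds PGK, so its cells may not share the genotype given above. Depth in genes was 36.4 to 51.3 M reads over the 12 hairpin libraries, and 1 read equalled 0.017 to 0.0239 RPM. Setdb1 itself stood at 46.2 ± 0.103 RPM with the control hairpin and 14.1 ± 1.72 RPM with the Setdb1 hairpin (mean ± SD, n = 3, here and throughout), and with 5-aza at 43.4 ± 0.631 and 12.9 ± 2.16 RPM. Beside the fibroblast label, 10 fibroblast genes summed to 18610 to 32760 RPM in the hairpin libraries with none of them at 0. In the same libraries 10 smooth muscle genes summed to 10580 to 12830 RPM, so these sums do not separate fibroblasts from contractile cells.

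As background, the muscle bHLH factors bind E-boxes, the DNA word CANNTG, as dimers with the broadly expressed E proteins, and Id proteins block them by taking up those partners. Myod1 and Myf5 commit cells to the muscle lineage, Myog drives differentiation, and MEF2 factors act with them on the promoters of contractile genes. 5-aza, which is incorporated into nucleic acids and traps DNA methyltransferases, is known for turning a fraction of cultured fibroblasts into muscle, and Myod1 was isolated from such conversions.

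The promoters of 4 target genes are shown, 3 of genes called in a comparison (Chrna1, Des and Actc1) and that of Acta1 as the other alpha actin. The stretches printed differ in the words that muscle factors read. Each is the 250 bases before the start of the gene in RefSeq (GRCm38.p6), written 5′ to 3′ on the strand of the gene. Of the 10 genes, 8 had such an entry. Capitals mark E-boxes in Chrna1, Des and Acta1, and the CArG box, the word read by serum response factor, in Actc1. The promoters lie at chr2:73580339-73580588 (Chrna1, minus strand), chr1:75360042-75360291 (Des, plus strand), chr8:123894776-123895025 (Acta1, minus strand) and chr2:114052876-114053125 (Actc1, minus strand).
Chrna1: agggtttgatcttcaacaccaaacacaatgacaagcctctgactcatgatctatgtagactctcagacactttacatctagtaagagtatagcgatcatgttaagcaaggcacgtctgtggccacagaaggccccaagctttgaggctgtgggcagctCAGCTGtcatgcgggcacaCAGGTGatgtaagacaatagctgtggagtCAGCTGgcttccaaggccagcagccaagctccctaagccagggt
Des: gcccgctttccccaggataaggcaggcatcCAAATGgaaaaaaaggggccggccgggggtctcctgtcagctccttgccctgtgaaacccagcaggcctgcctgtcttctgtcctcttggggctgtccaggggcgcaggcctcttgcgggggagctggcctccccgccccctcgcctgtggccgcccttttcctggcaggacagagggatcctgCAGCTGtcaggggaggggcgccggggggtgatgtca
Acta1: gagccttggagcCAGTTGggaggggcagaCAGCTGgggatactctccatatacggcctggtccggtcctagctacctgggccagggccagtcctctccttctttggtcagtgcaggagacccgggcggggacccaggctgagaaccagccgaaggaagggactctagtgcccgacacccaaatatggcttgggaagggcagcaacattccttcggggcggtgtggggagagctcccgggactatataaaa
Actc1: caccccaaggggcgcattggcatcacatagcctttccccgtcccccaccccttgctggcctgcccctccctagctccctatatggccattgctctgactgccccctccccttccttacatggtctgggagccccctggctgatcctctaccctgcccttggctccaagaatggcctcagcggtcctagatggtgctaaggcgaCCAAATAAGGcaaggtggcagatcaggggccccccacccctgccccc
The Chrna1 promoter held 3 E-boxes, 2 of them CAGCTG, and the Des promoter held 2, CAAATG and CAGCTG. The Acta1 promoter held 2 E-boxes, CAGTTG and CAGCTG, and 1 CArG box. Within its window the Actc1 promoter held no E-box and 1 CArG box, CCAAATAAGG. That window lies inside the Actc1 interval of the expression data (114047282 to 114053548), so it does not precede the start of that interval. Bases outside the window were not searched, and an E-box there is not excluded. Both strands were searched, and every CAGCTG is also counted as an E-box. E-boxes are common, occurring in 66.2% of the 32851 mouse promoters of this length, while CAGCTG occurred in 13.0% and the CArG box in 1.47%. The Myog promoter held 2 E-boxes, that of Myh3 held 1 and that of Myf5 held none. Mef2c had 3 starts, whose promoters held 2, 0 and 1 E-boxes and 1, 6 and 4 CpG dinucleotides. The number of CpG dinucleotides, the site of DNA methylation, was 3 in the promoters of Chrna1 and Myf5, 4 in those of Actc1 and Myh3, 7 in Myog, 9 in Acta1 and 10 in Des, against a median of 6 over all promoters (quartiles 2 and 16). These words are matches of letters only, and no binding or methylation was measured in these libraries.

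Among the regulators, Myod1 rose under both treatments together. The gene (ENSMUSG00000009471, chromosome 7, 46376474 to 46379092, plus strand, protein coding) held 2, 2 and 1 reads in control hairpin replicates A, B and 1. With 5-aza the control hairpin cells held 0, 5 and 8 reads. The Setdb1 hairpin libraries held 1, 4 and 4 reads, and those with Setdb1 hairpin and 5-aza held 14, 33 and 40. The 3 libraries with both treatments therefore lay above the other 9, and the other groups overlapped one another. In RPM the means were 0.0332 ± 0.0111 with the control hairpin, 0.0863 ± 0.0831 with control hairpin and 5-aza, 0.0615 ± 0.0376 with the Setdb1 hairpin and 0.568 ± 0.255 with both.

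The Myod1 reads of the Setdb1 hairpin cells with 5-aza were 9.41 times those without it when pooled and scaled to depth (exact 95% interval 4.73 to 21.3, counting error only). Against the control hairpin cells with 5-aza the ratio was 6.52 (3.62 to 12.7). On the log2 RPM scale 5-aza raised Myod1 in Setdb1 hairpin cells by 3.34 ± 0.78 (standard error, adjusted p = 0.0101). The Setdb1 hairpin raised it among 5-aza cells by 2.96 ± 0.78 (adjusted p = 0.0222). In control hairpin cells the 5-aza difference was 1.07 ± 0.78 (adjusted p = 0.379), and its 2-SE interval ran from -0.50 to 2.64. Leaving out control hairpin + 5-aza replicate A gave 1.96 (adjusted p = 0.0724), and leaving out replicate 1 of that group gave 0.41 (adjusted p = 0.779). The difference between the 5-aza effects of the 2 hairpins was 2.27 ± 1.11 (adjusted p = 0.791), so a dependence of the 5-aza response on the hairpin was not shown for this gene. Myod1 passed the lower filter only through the group in which it was high. The hairpin call among 5-aza cells was lost without control hairpin + 5-aza replicate A, the library without a read (2.07, adjusted p = 0.0782). It was also lost without Setdb1 hairpin + 5-aza replicate B (2.79, adjusted p = 0.0848) and without replicate 1 of that group (2.68, adjusted p = 0.0995). Without Setdb1 hairpin replicate A the 5-aza effect in Setdb1 hairpin cells was 2.69 (adjusted p = 0.0449), and without control hairpin + 5-aza replicate 1 the hairpin effect was 3.62 (adjusted p = 0.0109). A gene without a read carries the value of 0.9 read in the table, so these fitted changes depend on that value, and with 1 RPM added before the logarithm they were 0.55 and 0.52.

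The other 3 bHLH factors stayed at or near 0. Myf5 (ENSMUSG00000000435) and Myf6 (ENSMUSG00000035923), neighbours on chromosome 10, had no read in any library, which allows up to 0.051 to 0.0716 RPM per hairpin library. Myog (ENSMUSG00000026459, chromosome 1, 134290004 to 134292547) held 3, 0 and 2 reads with the control hairpin, 3, 2 and 0 with control hairpin and 5-aza, 3, 1 and 1 with the Setdb1 hairpin, and 4, 3 and 9 with both. The groups overlapped in every comparison. The pooled reads of Myog with both treatments were 3.11 times those of the Setdb1 hairpin alone, with an exact interval of 1.09 to 10.9 that does not include the spread between libraries.

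Mef2c, the MEF2 factor of the set, moved down and not up. The gene (ENSMUSG00000005583, chromosome 13, 83504034 to 83667079) stood at 14.0, 13.0 and 14.3 RPM with the control hairpin and at 11.2, 11.4 and 11.8 RPM with 5-aza. It stood at 12.1, 12.2 and 10.5 RPM with the Setdb1 hairpin and at 9.46, 9.20 and 7.33 RPM with both treatments. All 3 libraries with both treatments were below the other 9. In Setdb1 hairpin cells 5-aza lowered Mef2c by a log2 change of -0.42 ± 0.09 (adjusted p = 0.00676), and among 5-aza cells the Setdb1 hairpin lowered it by -0.42 ± 0.09 (adjusted p = 0.00959). The remaining contrasts gave -0.26 ± 0.09 for 5-aza under the control hairpin (adjusted p = 0.0696) and -0.25 ± 0.09 for the hairpin without 5-aza (adjusted p = 0.101). The former passed the threshold after median centring (-0.31, adjusted p = 0.0423) and quantile normalization (-0.32, adjusted p = 0.0371), when only these 2 groups were fitted (adjusted p = 0.0234), and without Setdb1 hairpin + 5-aza replicate 1 (adjusted p = 0.021). Without that same library the hairpin effect in untreated cells passed as well (adjusted p = 0.0322). The 5-aza effects under the 2 hairpins differed by -0.16 ± 0.13 (adjusted p = 0.796).

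**Figure D1:**
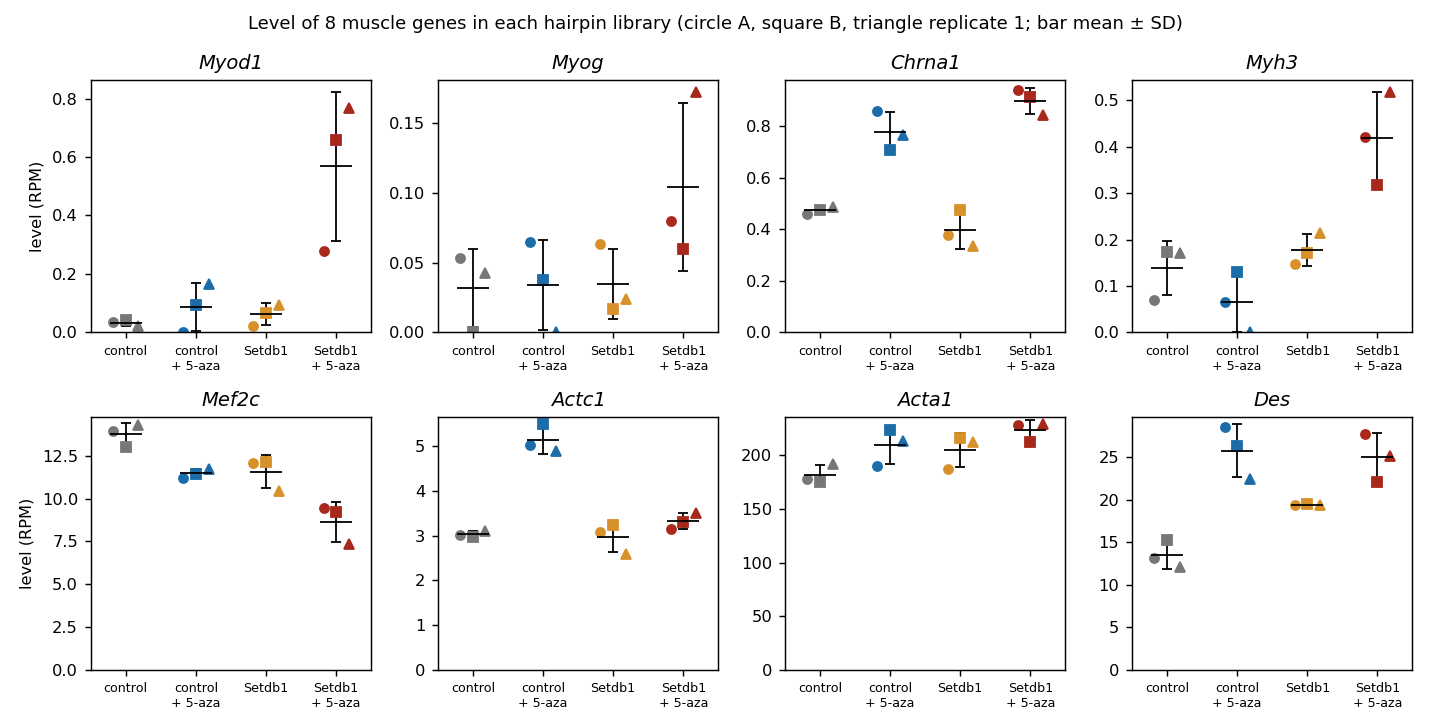
Level of 8 of the 10 genes in each hairpin library, in RPM on a linear axis from 0, with 3 points per group for replicates A (circle), B (square) and 1 (triangle) and a bar for the mean ± SD. Myod1 and Myh3 are highest in the 3 libraries with Setdb1 hairpin and 5-aza, Actc1 is highest in those with control hairpin and 5-aza, and Mef2c is lowest in those with both treatments. Myf5 and Myf6 had no read and are not drawn.

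Chrna1, the alpha subunit of the muscle acetylcholine receptor, rose with 5-aza under both hairpins. The gene (ENSMUSG00000027107, chromosome 2, 73563215 to 73580338) held 26, 22 and 23 reads with the control hairpin and 40, 38 and 37 with 5-aza. With the Setdb1 hairpin it held 18, 28 and 14 reads, and with 5-aza added 47, 46 and 44. The mean level went from 0.474 ± 0.0147 to 0.778 ± 0.0776 RPM under the control hairpin and from 0.396 ± 0.0726 to 0.8999 ± 0.0501 RPM under the Setdb1 hairpin, and in neither case did the groups overlap. The log2 changes were 0.71 ± 0.17 (adjusted p = 0.0134) and 1.20 ± 0.17 (adjusted p = 0.00061). The former missed the threshold with no filter on low values (0.71, adjusted p = 0.0587) and after quantile normalization (0.44, adjusted p = 0.0865). The 2 changes differed by 0.49 ± 0.24 (adjusted p = 0.791). The hairpin alone gave -0.28 ± 0.17 without 5-aza (adjusted p = 0.339) and 0.21 ± 0.17 with it (adjusted p = 0.412), and both of those pairs of groups overlapped. At under 1 RPM in every hairpin library, Chrna1 was a rare transcript throughout. Of the 31-base words in its transcripts 4.09% also occur in another gene, and 0.07% of the 100-base words do, so some of its few reads could come from elsewhere.

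Myh3, the embryonic myosin heavy chain, was the other low gene that was highest under both treatments. It lies on chromosome 11 (ENSMUSG00000020908, 67078300 to 67102291) and held 4, 8 and 8 reads with the control hairpin and 3, 7 and 0 with 5-aza. It held 7, 10 and 9 reads with the Setdb1 hairpin and 21, 16 and 27 with both treatments, above all 9 other libraries. Among 5-aza cells the Setdb1 hairpin raised Myh3 by 2.93 ± 0.60 (adjusted p = 0.00628), and the pooled ratio was 6.23 (exact interval 3.18 to 13.6). Leaving out control hairpin + 5-aza replicate 1, which held no read, gave 2.16 (adjusted p = 0.00935), and leaving out replicate B of that group gave 3.56 (adjusted p = 0.00317). In Setdb1 hairpin cells 5-aza gave 1.23 ± 0.60 (adjusted p = 0.152), which missed the threshold although the groups did not overlap. It passed when 0.1 RPM was added before the logarithm (0.89, adjusted p = 0.0433), with 1 RPM added (0.27, adjusted p = 0.0104), when only these 2 groups were fitted (adjusted p = 0.0211), and without control hairpin + 5-aza replicate 1 (adjusted p = 0.048). In control hairpin cells 5-aza gave -1.24 ± 0.60 (adjusted p = 0.178). The hairpin without 5-aza gave 0.46 ± 0.60 (adjusted p = 0.686). Of the 31-base words in Myh3 transcripts 11.1% also occur in another gene, the largest share among the 10 genes, and 1.13% of the 100-base words do, so part of its reads could belong to a related myosin.

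Of the 2 alpha actins of striated muscle, Actc1 responded to 5-aza under the control hairpin. Actc1 (cardiac alpha actin, also made early in skeletal muscle, ENSMUSG00000068614, chromosome 2, 114047282 to 114053548) stood at 3.005, 2.98 and 3.10 RPM with the control hairpin and at 5.04, 5.51 and 4.89 RPM with 5-aza. With the Setdb1 hairpin it stood at 3.07, 3.23 and 2.60 RPM, and with both treatments at 3.16, 3.30 and 3.51 RPM. The control hairpin libraries with 5-aza lay above the other 9. The 5-aza change was 0.76 ± 0.09 under the control hairpin (1.70-fold, adjusted p = 0.000261) and 0.17 ± 0.09 under the Setdb1 hairpin (adjusted p = 0.183, 2-SE interval -0.01 to 0.35). Among 5-aza cells the level with the Setdb1 hairpin was lower by a log2 change of -0.63 ± 0.09 (adjusted p = 0.000819). Without 5-aza the hairpin difference was -0.04 ± 0.09 (adjusted p = 0.842). The 5-aza effects under the 2 hairpins differed by -0.59 ± 0.13, which did not pass the correction over all genes (adjusted p = 0.129) but did without Setdb1 hairpin replicate 1 (-0.69, adjusted p = 0.0316). The interval of Actc1 lies wholly within that of A530058N18Rik on the opposite strand, which had no read in any hairpin library.

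Acta1, the skeletal alpha actin, was by far the highest of the set and passed no test. It lies on chromosome 8 (ENSMUSG00000031972, 123891767 to 123894736). Its levels were 178, 175 and 192 RPM with the control hairpin, 190, 224 and 214 RPM with 5-aza, 187, 216 and 213 RPM with the Setdb1 hairpin, and 228, 213 and 230 RPM with both. Per kilobase of exon its mean was 118 to 145 RPM over the groups, against 1.83 to 3.18 for Actc1 and 3.59 to 6.86 for Des. The largest log2 difference was 0.20 ± 0.07, for 5-aza with the control hairpin (adjusted p = 0.0624), and it passed the threshold without control hairpin + 5-aza replicate A (0.27, adjusted p = 0.0186) and without Setdb1 hairpin replicate A (adjusted p = 0.0412). The hairpin difference without 5-aza was 0.17 ± 0.07 (adjusted p = 0.125), and without Setdb1 hairpin replicate A it was 0.24 (adjusted p = 0.0498). The interval of Acta1 lies within that of Gm20388 on the opposite strand, which held 11534 to 16925 reads, and since the sources used here do not say whether strand was used in counting, reads of the 2 genes cannot be told apart. Acta1 and Actc1 transcripts share no 100-base word with another gene, but 4.11% and 0.76% of their 31-base words also occur elsewhere. Reads with mismatches are not covered by this count of exact words.

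Des, which encodes desmin, the intermediate filament of muscle cells, rose with either treatment alone. It lies on chromosome 1 (ENSMUSG00000026208, 75360329 to 75368579) and stood at 13.1, 15.3 and 12.1 RPM with the control hairpin and at 28.6, 26.3 and 22.4 RPM with 5-aza. The Setdb1 hairpin libraries held 19.3, 19.5 and 19.3 RPM, and those with both treatments held 27.7, 22.0 and 25.1 RPM. Each treated group lay above the control hairpin group, and the groups with 5-aza overlapped each other. With 5-aza the change was 0.94 ± 0.11 under the control hairpin (1.91-fold, adjusted p = 0.000184) and 0.36 ± 0.11 under the Setdb1 hairpin (1.28-fold, adjusted p = 0.0259). The Setdb1 hairpin raised Des by 0.53 ± 0.11 without 5-aza (1.44-fold, adjusted p = 0.00763). With 5-aza it made a difference of -0.05 ± 0.11 (adjusted p = 0.795, 2-SE interval -0.26 to 0.17). The 5-aza effects under the 2 hairpins differed by -0.58 ± 0.15 (adjusted p = 0.318). The 5-aza call in Setdb1 hairpin cells was a weak one. It was lost after median centring (0.30, adjusted p = 0.0688) and quantile normalization (0.31, adjusted p = 0.0705), and without Setdb1 hairpin replicate A (adjusted p = 0.0691), B (adjusted p = 0.056) or 1 (adjusted p = 0.06), or Setdb1 hairpin + 5-aza replicate A (0.28, adjusted p = 0.0789) or 1 (adjusted p = 0.0665). Desmin is also made by smooth muscle cells, and bulk RNA does not separate more cells of a type from more RNA per cell.

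**Figure D2:**
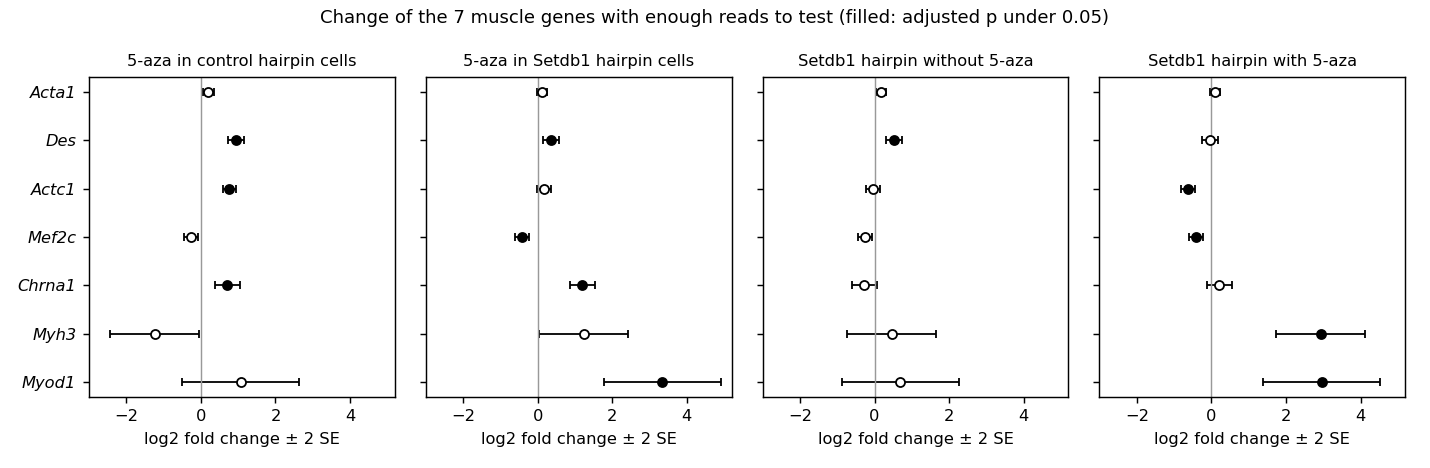
Log2 fold change of the 7 genes with enough reads to test, with bars of 2 standard errors, in the 4 contrasts of treatment against its control. Filled points passed an adjusted p of 0.05. Des, Actc1 and Chrna1 are filled for 5-aza in control hairpin cells, and Myod1 and Myh3, with the widest bars, are filled on the right for the Setdb1 hairpin with 5-aza.

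The calls in the set stand here beside those over all genes. Among genes with at least 1 RPM, 5-aza in control hairpin cells changed 2 of the 4 tested members (Des and Actc1, both up) and 18.8% of 13134 genes. In Setdb1 hairpin cells 5-aza changed 2 of the 4 (Des up and Mef2c down) and 28.9% of genes. The Setdb1 hairpin changed 1 of the 4 without 5-aza (Des, up) against 12.4% of genes, and 2 of the 4 with 5-aza (Actc1 and Mef2c, both down) against 19.9%. The test of whether the 5-aza effect differed between the hairpins called 0 of the 4 and 0.388% of genes, and voom on the recovered reads also called 0. Of the 4, Des and Actc1 had an unadjusted p under 0.05 in that test. Des was called there with the replicate block by culture (adjusted p = 0.0276), and Actc1 without Setdb1 hairpin replicate 1 (adjusted p = 0.0316). With the filter lowered to 0.1 RPM, calls were 3 of 7 for 5-aza in control hairpin cells (16.5% of 16043 genes), 4 of 7 for 5-aza in Setdb1 hairpin cells (24.9%), 1 of 7 for the hairpin without 5-aza (10.9%) and 4 of 7 for the hairpin with 5-aza (17.2%). Both counts of 4 include Myod1, which passed that filter only through the group in which it was high, so its entry and its call are not independent. With so few genes, these shares are a description and no test of the set.

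The genes of the set did not all move together, although the low gene Chrna1 and the abundant gene Des both rose with 5-aza under each hairpin. Under both treatments Myod1 and Myh3 were at their highest, Chrna1 overlapped its level with control hairpin and 5-aza, and Actc1 was lower than with control hairpin and 5-aza. Across the 12 libraries the Pearson correlation of log2 RPM between Actc1 and Des was 0.58, between Acta1 and Des 0.67, between Actc1 and Acta1 0.26, and between Mef2c and Des -0.70. The genes most like Des in this measure were Grb14 (0.97), Hhipl1 (0.97) and Fam171b (0.96). Those most like Actc1 were Ncoa4, Rps15a-ps1 and Psenen (0.97 to 0.98), those most like Acta1 were Nhlrc1, Eid2 and Cnpy3 (0.91 to 0.92), and those most like Mef2c were Ctnna2, Rasgrp1 and Foxj2 (0.96 to 0.98). None of these 12 genes is on the muscle lists used here. The correlations describe 12 libraries that share treatments, cells and sequencing, and carry no test.

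The genes that act before or beside the bHLH factors were largely present, and their called changes went both ways. Of 24 such regulators 17 were tested, with 0 up and 2 down for 5-aza in control hairpin cells, 1 up and 2 down for 5-aza in Setdb1 hairpin cells, 3 up and 0 down for the hairpin without 5-aza, and 1 up and 1 down with it, against 18.8%, 28.9%, 12.4% and 19.9% of all genes called in these contrasts. Their median log2 changes were 0.01, -0.07, -0.02 and 0.01, against 0.04, 0.06, 0.03 and 0.05 over all genes tested. Eya4, a transcriptional coactivator, fell with 5-aza by 0.61 on the log2 scale under the control hairpin (adjusted p = 0.0148) and by 0.74 under the Setdb1 hairpin (adjusted p = 0.00417). The homeobox gene Six4 rose with the Setdb1 hairpin by 0.34 (adjusted p = 0.0144), and Tcf3, an E protein partner of MYOD1, rose by 0.17 (adjusted p = 0.0366). Meox2, a homeobox gene of the somite, fell with the hairpin among 5-aza cells by 0.95 (adjusted p = 0.00436). Meox1, its relative, was too rare for that filter, and at 0.1 RPM it rose with the Setdb1 hairpin by 3.70 ± 0.88 (adjusted p = 0.0189). Pax7 and Lbx1, which mark muscle precursors, had at most 1 read in any hairpin library. These 2 were picked for being near 0, and 17 of the 24 regulators passed the 1 RPM filter. Not every precursor gene of the list was that rare, so they do not stand for the list.

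The genes of the later muscle programme were rare, and those that were tested moved in both directions. Only 9 of 39 sarcomere and contraction genes had enough reads for the test, and 1 rose and 1 fell with 5-aza in control hairpin cells, 2 rose and 2 fell with 5-aza in Setdb1 hairpin cells, 0 changed with the hairpin alone, and 1 rose and 1 fell with the hairpin among 5-aza cells. These are 2, 4, 0 and 2 calls of 9, beside the same shares of all genes. The median changes were 0.06, -0.09, 0.06 and -0.05. Ldb3, a Z-disc protein, rose with 5-aza by 0.48 under the control hairpin (adjusted p = 0.00906) and by 0.50 under the Setdb1 hairpin (adjusted p = 0.00579). Myom1, an M-band protein, fell by 0.52 (adjusted p = 0.0243) and by 0.88 (adjusted p = 0.00135), from 63.1 ± 4.74 to 44.4 ± 6.72 RPM and from 53.9 ± 7.06 to 29.4 ± 5.44 RPM. Ckm, the muscle creatine kinase, held at most 1 read in any hairpin library, and Myl1, a fast myosin light chain, at most 2. In the libraries with both treatments, where Myod1 was highest, Ckm held 0, 1 and 1 reads, against 0 in the other 9. Myl1 held 1 read in each library with both treatments, against 0 to 2 in the other 9. These 2 genes were picked for being near 0 and do not stand for the list. Tnnc1 and Xirp1 had their highest group mean with both treatments (1.31 and 0.249 RPM), and Casq1 and Myom1 their lowest (0.296 and 29.4 RPM). These examples were named after their values were seen.

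Of 13 fusion and neuromuscular junction genes 4 were tested, and Dysf, the membrane repair protein dysferlin, was the only one called, up with 5-aza by 0.32 under the control hairpin (adjusted p = 0.000847) and by 0.24 under the Setdb1 hairpin (adjusted p = 0.00337). In these 2 contrasts 18.8% and 28.9% of all genes were called. The partners of Chrna1 in the acetylcholine receptor were split. Chrnb1 stood at 6.67 to 7.14 RPM in the group means, and Chrnd, Chrng and Chrne had no read in any library. The fusion factor genes Mymk and Mymx, listed under older symbols, held at most 4 reads and 0 reads.

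Other contractile and contaminating cell types were followed by their own lists, because Des, Acta1 and Actc1 are not made by skeletal muscle alone. All 10 smooth muscle genes were tested and summed to 10580 to 12830 RPM, with Acta2 and Tagln, smooth muscle actin and transgelin, leading. For 5-aza in control hairpin cells 1 rose (Actg2, 0.23, adjusted p = 0.00648) and 2 fell, for 5-aza in Setdb1 hairpin cells 1 rose (Actg2, 0.16, adjusted p = 0.0233) and 1 fell, and the hairpin lowered 3 without and 4 with 5-aza and raised none. The largest of these was Myocd, the smooth muscle coactivator, which fell with the hairpin by 0.73 without 5-aza (adjusted p = 0.00312) and by 0.63 with it (adjusted p = 0.0054). Of 10 cardiac genes 3 were tested, with Tnnt2 up by 0.60 with 5-aza in Setdb1 hairpin cells (adjusted p = 0.0398), and Nkx2-5 held at most 1 read. Of the 10 fibroblast genes limma called 0 for 5-aza in control hairpin cells and 0 for the hairpin without 5-aza. In Setdb1 hairpin cells with 5-aza Col1a1 was lower by 0.73 (limma adjusted p = 0.0337) and S100a4 higher by 0.63 (adjusted p = 0.00861) than without 5-aza. The hairpin among 5-aza cells lowered 1 of the 10 and raised 0. The median log2 change of the list was -0.40 there, against 0.05 over all genes tested. Beside these 3 lists, 18.8% of all genes were called for 5-aza under the control hairpin and 28.9% under the Setdb1 hairpin. For the hairpin the shares were 12.4% without and 19.9% with 5-aza.

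Macrophage genes summed to 13.2 to 15.5 RPM in the libraries with 5-aza and 10.2 to 11.6 RPM in those without. Of 3 tested 2 rose with 5-aza under each hairpin, Itgam and Csf1r under the control hairpin and Cd68 and Csf1r under the Setdb1 hairpin. Among 5-aza cells the Setdb1 hairpin gave Itgam a log2 change of -1.4 (limma adjusted p = 0.00162), in a contrast that called 19.9% of all genes. The 5-aza effects on Itgam under the 2 hairpins differed by -1.76 (limma adjusted p = 0.0392). Of all genes, 18.8% were called for 5-aza under the control hairpin and 28.9% under the Setdb1 hairpin. Endothelial genes summed to 4.22 to 6.28 RPM with 5-aza and 6.21 to 8.20 RPM without, and Emcn fell by 1.09 and 1.52 (adjusted p = 0.00159 and 0.00024). Cdh5, another endothelial gene, rose at the 0.1 RPM filter by 1.73 and 1.78 (adjusted p = 0.00366 and 0.00259), so this list went both ways. The macrophage sum thus rose with 5-aza under each hairpin, as Chrna1 and Des did, while the endothelial sum fell. The macrophage genes Adgre1 and Tyrobp held at most 4 reads in any hairpin library, and the endothelial gene Tie1 at most 1. Other genes of these lists were present in every hairpin library. Among them Csf1r held 330 to 494 reads, Cd68 held 72 to 156 and Emcn held 52 to 208. The endothelial gene Pecam1, named after its values were seen, had the pattern of Myod1 and Myh3, with 15, 19 and 23 reads under both treatments and 3 to 5 in the other 9 libraries. The part of these cells in the results above was not tested.

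**Figure D3:**
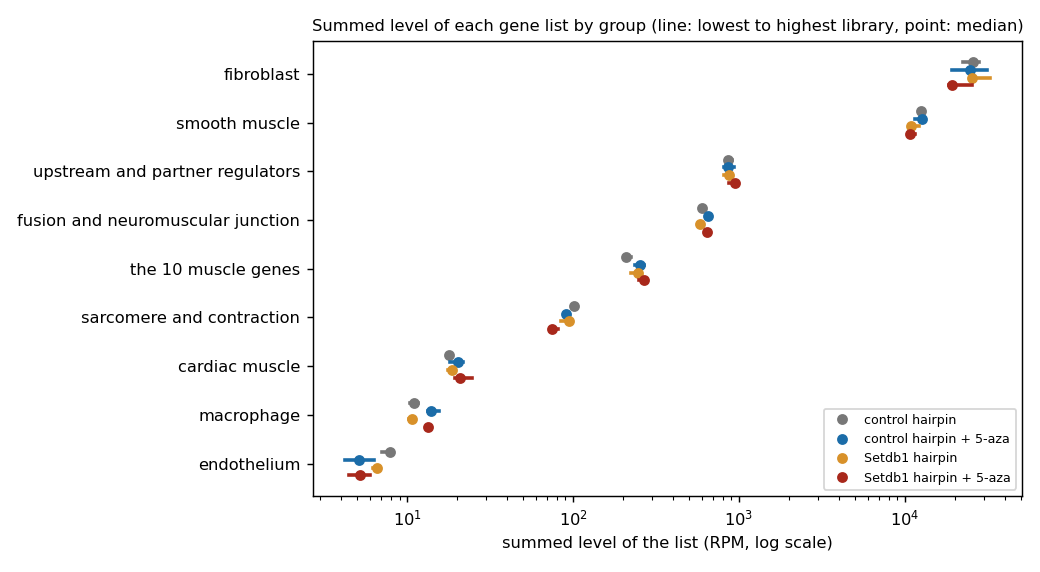
Summed level of each gene list in RPM on a log axis, with a line from the lowest to the highest of 3 libraries and a point for the median, coloured by group. The 39 sarcomere genes sum to 74.4 to 102 RPM and are lowest with both treatments. Much of that sum is Myom1, with a mean of 63.1 RPM with the control hairpin and 29.4 RPM with both treatments. Ldb3 went the other way, from 20.1 to 29.1 RPM, so the sum does not describe the list gene by gene. Fibroblast genes sum to 18610 to 32760 RPM.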

How the data were processed

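Poly(A) RNA libraries were sequenced as 100-base single-end reads, and the authors deposited 1 table of log2 RPM values per gene and library, in mm10 gene intervals, with CASAVA 1.4 in the submitters' processing notes. The study names TopHat for an alignment to chromosome X only in another build, and the aligner and counting behind this table were not given in the sources used here. Genes with no read were set to 0.9 read, and 100% of other values were whole multiples of 1 read (tolerance 0.1), so reads were recovered.

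Linear models of the log2 values used limma 3.58.1 (lmFit, contrasts.fit, eBayes with trend; R 4.3.3), with all 12 hairpin libraries in 1 fit, group as the term and 5 contrasts. Genes with at least 1 RPM in 3 libraries were tested, and Chrna1, Myod1 and Myh3 come from the same fit at 0.1 RPM. Tests were two-sided with Benjamini-Hochberg adjustment over all genes tested, and a gene was called at an adjusted p under 0.05. Intervals of read ratios are exact and cover counting error only, as PCR copies are not independent molecules, and 3 reads were taken as the most a count of 0 allows. Nothing says that replicates came from separate embryos, so p-values measure the spread between these libraries. Alternatives were other filters, pseudocounts and scalings, voom on recovered reads, fewer groups, replicate blocks and leaving out each library. Exon lengths and shared words came from GENCODE transcripts of GRCm38. Other listed genes are named where they were among the 3 largest called changes without overlap per contrast and direction, and the 3 genes most correlated with each tested member are named. A gene of the regulator list is not reported here by name. Genes at or near 0 and the Chrna1 partners were named after their values were seen. The members and lists were chosen with earlier results of these data known.

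Libraries of the same Setdb1 hairpin and replicate without and with 5-aza deviated together from their group means (correlations 0.634, 0.413 and 0.472), so these numbers were taken as pairs, and the fit with that block changed no call among the 10 genes for 5-aza in Setdb1 hairpin cells.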

Additional observations from a re-analysis of the deposited data

Results flagged for a closer look

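The 5-aza library whose title names no hairpin, which entered no comparison, held 3 of the 10 genes at a higher level than any of the 12 hairpin libraries. Des stood there at 47.19 RPM, against at most 28.6 RPM in the others, and Chrna1 at 1.423 RPM, against at most 0.94 RPM. Myog stood at 0.1962 RPM, which is 4 reads, against at most 0.173 RPM. The library was the shallowest, at 20.4 M reads, and its macrophage genes summed to 120 RPM, against at most 15.5 RPM in the hairpin libraries. Its library name holds PGK, and the study identified strain variants in a PGK sample, so this library may also differ in strain. The labels give no genotype, and strain and the lack of a named hairpin cannot be told apart. The part of depth, macrophage genes or strain in these levels was not tested.

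Myh3 moved in opposite directions with 5-aza under the 2 hairpins. In libraries matched by hairpin and replicate it was lower with 5-aza in 3 of 3 control pairs, with a mean log2 change of -1.2412, and higher in 3 of 3 Setdb1 pairs, with a mean of 1.23. Of the control pairs, 2 differed by 1 read (4 and 3, 8 and 7), and the control change was -0.48 without control hairpin + 5-aza replicate 1, which held no read. Control replicates were not shown to be pairs. Shared directions are no test of the difference. The interaction term gave 2.47 ± 0.85 (limma, adjusted p = 0.682), so the difference did not pass the correction over all genes.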

How the results depend on the processing

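For single genes 744 alternative values were computed for 35 results, of which 711 kept direction and side of the threshold, 13 lost the threshold, 16 gained it and 4 changed sign. The count of called members for 5-aza in control hairpin cells was 2, and it was 1 at 5 RPM and 4 with the replicate block by culture. For 5-aza in Setdb1 hairpin cells the count of 2 became 4 with no filter, 4 at 0.1 RPM, 4 with voom at 10 reads, 1 after median centring, 1 after quantile normalization and 1 to 2 without single libraries. For the hairpin without 5-aza the count of 1 became 0 with the replicate block by letter and was 1 to 2 without single libraries, with Mef2c added without Setdb1 hairpin + 5-aza replicate 1 and Acta1 without Setdb1 hairpin replicate A. For the hairpin with 5-aza the count of 2 became 4 with no filter, 4 at 0.1 RPM, 4 with voom at 10 reads and 1 at 5 RPM. Lower filters add members to the test, with Myod1 passing 0.1 RPM only through the group in which it was high. The 5 RPM filter removes Actc1, and the cause of the other shifts was not tested. For the interaction the count of 0 became 1 with the replicate block by culture (Des, adjusted p = 0.0276), and was 0 to 1 without single libraries.

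The 4 changes of sign all fell on differences that passed no test. Actc1 with the hairpin alone went from -0.04 to 0.0746 under the block by letter and ran from -0.0995 to 0.057 without single libraries. Des with the hairpin among 5-aza cells ran from -0.1408 to 0.0414. Control libraries of the same replicate correlated at 0.149, 0.0999 and 0.586 in their deviations, so that block was not taken as a pairing, and the letters shared between hairpins gave 0.19, -0.47, 0.686 and -0.02. Under the block by letter Des with the hairpin alone missed the threshold (0.46, adjusted p = 0.0537). With median centring the share of called genes that rose over all genes went from 71.6% to 49.0% for 5-aza in control hairpin cells, from 74.0% to 52.3% in Setdb1 hairpin cells, from 72.6% to 48.0% for the hairpin without 5-aza and from 73.0% to 48.7% with it. Depth limits Myog, Myf5, Myf6 and Myod1, which held from 0 to 9 reads in most libraries.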

Other observations

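Under the filter of 0.1 RPM a few rarer genes of the muscle lists were also called. Meox1, a homeobox gene of the somite, held 90, 53 and 55 reads in the Setdb1 hairpin libraries A, B and 1 and 14, 10 and 0 in the control hairpin libraries (log2 change 3.70 ± 0.88, limma adjusted p = 0.0189). With 5-aza it held 25, 16 and 17 reads under the Setdb1 hairpin and 6, 2 and 0 under the control hairpin (3.06 ± 0.88, adjusted p = 0.0318, or 0.0617 by voom on reads). Xirp1, an actin-binding protein of striated muscle, held 11, 12 and 15 reads with both treatments and 5, 1 and 3 with the Setdb1 hairpin alone (2.29 ± 0.61, adjusted p = 0.0177). Casq2, the cardiac and slow muscle calsequestrin, held 4, 8 and 4 reads with the Setdb1 hairpin and 14, 17 and 19 with the control hairpin (-1.69 ± 0.32, adjusted p = 0.00542). Of the 25 sarcomere genes tested at that filter, 4 rose and 3 fell with 5-aza in Setdb1 hairpin cells, and 1 rose and 2 fell in control hairpin cells, beside 24.9% and 16.5% of all genes called there. These genes, and those that follow, were chosen after their values were seen.

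Among endothelial genes at that filter, 5-aza gave Pecam1 a change of 2.17 ± 0.31 in Setdb1 hairpin cells (adjusted p = 0.000758), but it passed the filter only through the group in which it was high. In the library with no named hairpin Myh6, the cardiac alpha myosin, held 55 reads, against 2 to 11 in the hairpin libraries.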
